A study of Mus musculus with 4 samples.

Results

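The 91 genes described here encode nuclear subunits, tissue isoforms and assembly factors of the 5 oxidative phosphorylation complexes of the mouse. Membership follows the symbol: each has a probe set that the platform annotation assigns to a single gene, and its symbol begins with Nduf, Sdha, Sdhb, Sdhc, Sdhd, Uqcr, Cox4, Cox5, Cox6, Cox7, Cox8 or Atp5, with symbols of pseudogenes left out. The rule itself uses no expression value, and the 91 genes stand among 22180 genes that the arrays measure in the same way. A further 8 genes with such symbols (Cox6c, Ndufb2, Ndufb4, Ndufb4b, Ndufb4c, Ndufs6, Ndufs6b and Uqcr10) are read only by probe sets shared with other genes and are given no value.

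Oxidative phosphorylation couples the oxidation of NADH and succinate to the synthesis of ATP in the inner mitochondrial membrane. Complex I (NADH dehydrogenase) and complex II (succinate dehydrogenase) pass electrons to ubiquinone, complex III passes them on to cytochrome c, and complex IV passes them to oxygen, while complexes I, III and IV pump protons that drive complex V, the ATP synthase. The mitochondrial genome encodes a small set of membrane subunits, and the nuclear genes encode the rest. Mast cells, the granule-filled effector cells of allergy, draw on both glycolysis and mitochondrial respiration.

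The study measured RNA from mast cells of BALB/c mice on Affymetrix arrays, with 1 array for each of 4 groups. Intestinal mucosal mast cells came from naive mice, whose small-intestinal lamina propria was sorted by flow cytometry for cells positive for FcεRI and c-Kit. The other 3 groups were bone marrow-derived mast cells, raised in stem cell factor and interleukin-3 (10 ng/ml each) over 3 to 4 weeks before a further 6 days of culture. One was grown together with Chinese hamster ovary (CHO) cells that express the mouse Notch ligand Dll1 and was recovered with c-Kit magnetic beads, one received TGF-β1 at 5 ng/ml, and the control stayed in normal medium. The labels give neither the age nor the number of the mice, nor whether animals were pooled. The title of the series concerns Notch signalling and the differentiation of mucosal mast cells, so each culture condition is set against the control culture, the intestinal cells are set against the same control, and the Dll1 coculture is set against the TGF-β1 culture.

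With 1 array a group no replicate error exists, no test was possible, and every difference below compares 2 arrays. The number of arrays limits the precision. Values are log2 signals as deposited. A gene counts as above background on an array where its value exceeds the 95th percentile of 1440 probe sets for olfactory, vomeronasal and taste receptors, which lay at 5.11 on the intestinal array, 5.12 on the Dll1 array, 5.20 on the TGF-β1 array and 5.11 on the control array. The deposited values of the 4 arrays had medians between 4.98 and 5.06. In all 4 groups 7 of 7 defining mast cell genes (Kit, Fcer1a, Ms4a2, Cpa3, Hdc, Gata2 and Mitf) exceeded the limit. In bulk RNA, fewer cells of a type and less RNA per cell cannot be told apart.

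Most of the genes of oxidative phosphorylation were read above background in every group. Of the 91 genes, 82 exceeded the limit on all 4 arrays, 3 (Cox7c, Ndufb11 and Sdhaf3) on some, and 6 on none. The counts by array were 84 genes for the intestinal cells, 85 for the Dll1 coculture, 83 for the TGF-β1 culture and 84 for the control. The 6 without signal comprised 4 genes of complex IV known as alternative isoforms or relatives of common subunits, namely Cox7b2 and Cox8c (testis isoforms), Cox8b (a muscle isoform) and Ndufa4l2 (a hypoxia-induced relative of Ndufa4). The other two were Atp5j2, subunit f of the ATP synthase, which read 4.78 on the intestinal array, 4.58 with Dll1, 4.69 with TGF-β1 and 4.71 in the control, and Ndufs5, an accessory subunit of complex I, which read 4.76 in intestinal cells, 4.63 with Dll1, 4.59 with TGF-β1 and 4.67 in the control. Both belong to complexes whose other subunits were detected, and whether their probe sets fail to report the transcript was not tested.

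**Figure D1:**
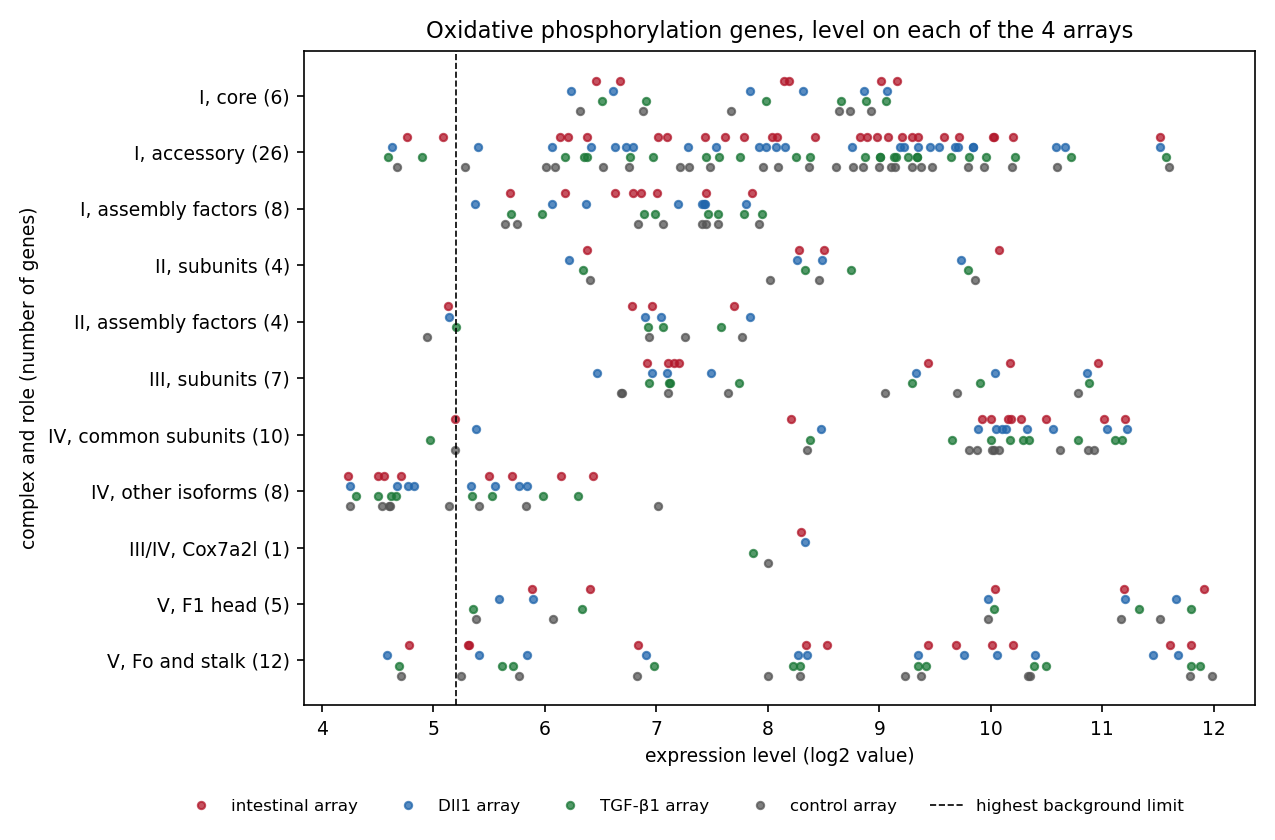
Deposited log2 value (horizontal axis) of the 91 genes by complex and role (vertical axis, with the number of genes), 1 point for each gene and array, arrays told apart by colour. The dashed line marks the highest of the 4 background limits, 5.20. Among the other isoforms of complex IV the control point at 7.01, which is Cox7a1, stands to the right of the points of the other arrays.

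The genes as a group were nearly level across the 4 arrays. For the 85 genes above background on at least 1 array, the range between the highest and lowest of the 4 arrays had a median of 0.38 on the log2 scale, against 0.50 over all 13355 genes passing the same filter. A range under 0.585, which is 1.5-fold, was found for 77 of the 85 (90.6%), against 59.8% of all genes, and a range over 1, which is 2-fold, was found for 3 of the 85 (3.53%), against 16.2% of all genes. Brighter genes gave the same picture, since 93.5% of the 46 members with a mean of at least 8 stayed under 0.585, against 55.7% of 2657 genes of that brightness. The members had their lowest value on the control array in 30 cases (35.3%), against 23.8% of all genes, and their highest value there in 9 cases (10.6%), against 26.0% of all genes. The control array also had the lowest median of the deposited values (4.98). These counts were not recomputed with array medians subtracted.

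The narrowest ranges belonged to Atp5g3, Atp5e, Ndufa1, Atp5mpl and Ndufb8, at 0.067, 0.069, 0.082, 0.094 and 0.099. Atp5g3, which encodes 1 of the isoforms of the c subunit that forms the proton-turned ring of the ATP synthase, read 8.34 on the intestinal array, 8.35 with Dll1, 8.29 with TGF-β1 and 8.29 in the control. Ndufa1, a membrane-arm accessory subunit of complex I, read 11.52 in intestinal cells, 11.51 with Dll1, 11.57 with TGF-β1 and 11.60 in the control. At the other end, the 3 genes with a range over 1 were Cox7a1 (1.18), Ndufb10 (1.09) and Ndufa10 (1.03), followed by Ndufa6 (0.85) and Ndufaf3 (0.70). Each of these 5 genes is read by 1 probe set, so no second probe set of the gene could be compared.

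**Figure D2:**
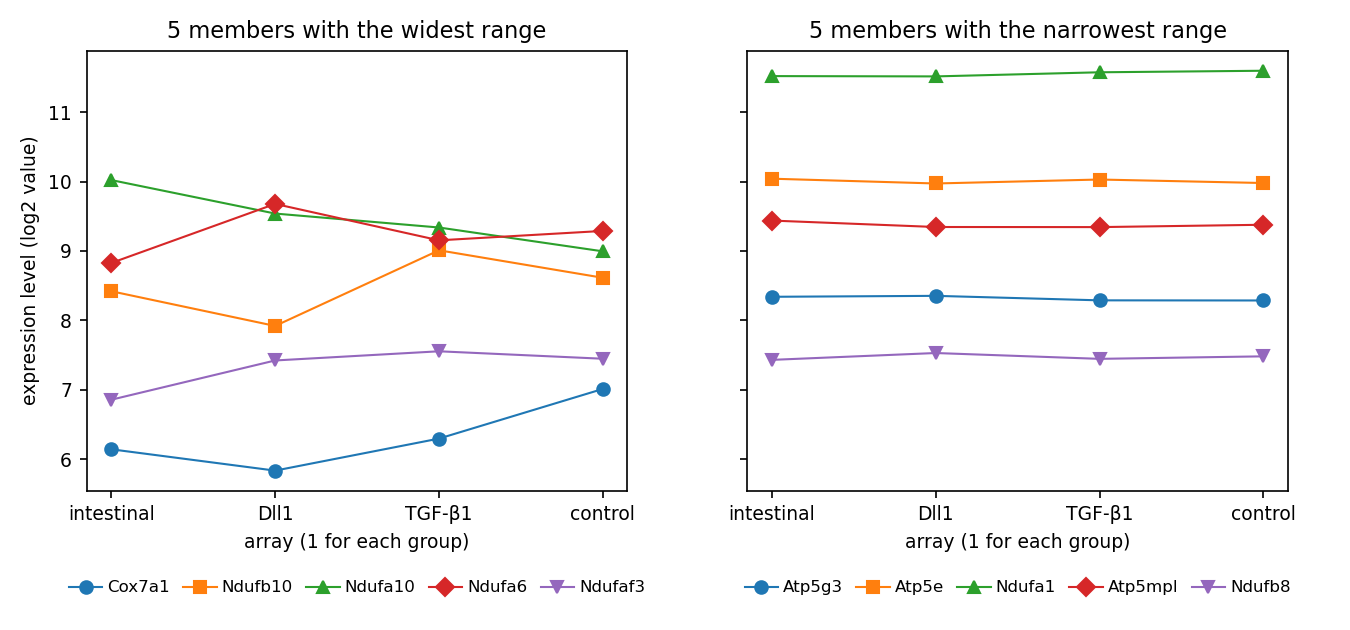
Deposited log2 value (vertical axis) on each array (horizontal axis) of the 5 genes with the widest range, left, and the 5 with the narrowest, right, 1 line for each gene and no error since each group has 1 array. Among the widest, Cox7a1 was highest in the control (7.01), Ndufa10 was highest in the intestinal cells (10.02) and Ndufb10 was highest with TGF-β1 (9.01), while the 4 values of Atp5g3 lay between 8.29 and 8.35.

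The promoter windows of these 3 most variable genes and of the narrowest gene are shown because they are the genes at the ends of the distribution. They come from RefSeq on build GRCm38.p6, run 5′ to 3′ on the strand of the gene, and cover 250 bases before the annotated start and 50 bases from it. The windows are chr7:30183921-30184220 on the plus strand for Cox7a1, chr17:24724374-24724673 on the minus strand for Ndufb10, chr1:92473709-92474008 on the minus strand for Ndufa10 and chr2:73911277-73911576 on the minus strand for Atp5g3. Capitals mark matches to any of 3 motifs.
Cox7a1: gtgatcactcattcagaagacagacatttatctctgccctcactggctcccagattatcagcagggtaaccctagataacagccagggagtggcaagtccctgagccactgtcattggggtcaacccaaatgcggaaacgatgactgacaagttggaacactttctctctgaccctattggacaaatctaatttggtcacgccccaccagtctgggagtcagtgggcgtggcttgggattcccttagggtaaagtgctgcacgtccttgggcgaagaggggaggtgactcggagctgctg
Ndufb10: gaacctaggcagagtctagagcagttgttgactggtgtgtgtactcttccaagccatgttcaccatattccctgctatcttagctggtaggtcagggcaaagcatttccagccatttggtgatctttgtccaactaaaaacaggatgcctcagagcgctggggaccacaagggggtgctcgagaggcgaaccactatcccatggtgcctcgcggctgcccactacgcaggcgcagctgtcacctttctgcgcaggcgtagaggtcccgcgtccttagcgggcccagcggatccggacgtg
Ndufa10: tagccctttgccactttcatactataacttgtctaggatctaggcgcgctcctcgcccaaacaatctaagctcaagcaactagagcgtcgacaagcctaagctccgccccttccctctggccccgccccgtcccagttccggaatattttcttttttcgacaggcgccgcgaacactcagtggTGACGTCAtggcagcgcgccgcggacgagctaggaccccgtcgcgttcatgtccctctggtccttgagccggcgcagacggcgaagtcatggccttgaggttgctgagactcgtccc
Atp5g3: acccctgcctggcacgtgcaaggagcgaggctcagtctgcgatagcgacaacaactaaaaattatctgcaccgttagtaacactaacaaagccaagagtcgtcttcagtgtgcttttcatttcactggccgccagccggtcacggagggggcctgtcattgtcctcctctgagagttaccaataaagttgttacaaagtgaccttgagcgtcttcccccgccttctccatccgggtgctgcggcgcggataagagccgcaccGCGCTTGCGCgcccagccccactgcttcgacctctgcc

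The motifs were the NRF1-type motif (GCGC, any pair of bases, then GCGC), the ETS-type motif CCGGAAG and the CRE-type motif TGACGTCA, each sought on both strands. The Ndufa10 window holds the CRE-type motif, beginning 67 bases before the start, and the Atp5g3 window holds the NRF1-type motif, beginning 12 bases past it. The Cox7a1 and Ndufb10 windows hold none of the 3, which says only that those letters are not in these windows. Windows were found for 76 of the 91 genes, 81 windows in all, because some genes have several annotated starts. The NRF1-type motif was in 22 of the 81 (27.2%), against 6.23% of all 32851 windows and 8.57% of the 21262 windows of coding genes. For the ETS-type motif the count was also 22 of 81 (27.2%), against 8.86% of all windows and 11.6% of coding ones. The CRE-type motif was in 3 of the 81 (3.70%), against 1.79% and 2.23%. No window of the 81 held overlapping matches of different motifs. The matches describe the letters of the windows and identify no bound site.

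With TGF-β1 the genes lay slightly above the control, and Cox7a1 alone passed 1.5-fold. Of the 85 genes tested, 60 (70.6%) had a difference above 0, against 47.6% of all 12063 genes tested, and the median difference was 0.095, against -0.015 for all genes. The 60 include Cox7c, which read 4.97 with TGF-β1, against 5.20 in the control. Cox7c counts as above 0 only because values under the limit were raised to it. After each array's median was subtracted, 48 (56.5%) lay above 0, against 42.3% of all genes. None of the 85 was at least 1.5-fold higher, against 2.51% of all genes, and 1 was at least 1.5-fold lower, against 4.00%. At 2-fold neither direction held a member, against 0.506% of all genes higher and 0.887% lower. Between probe sets of the same gene, differences in this comparison varied with an SD of 0.24 over 317 genes.

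Cox7a1, the heart and skeletal muscle isoform of subunit 7a of cytochrome c oxidase, read 6.30 with TGF-β1, against 7.01 in the control, a difference of -0.71 or 1.64-fold lower. The next lowest were Ndufb3, a membrane-arm subunit of complex I, at -0.34, Ndufv3, an accessory subunit of its NADH-oxidising module, at -0.24, and the assembly factors Sdhaf4, Sdhaf2 and Ndufaf2 at -0.20, -0.20 and -0.17. The highest was Atp5o, the stalk subunit that ties the catalytic head of the ATP synthase to its membrane part, with 5.72 in TGF-β1 cells, against 5.25 in control cells, a difference of 0.47. Uqcrfs1, the Rieske iron-sulfur protein of complex III, followed at 0.43, then Ndufb10 at 0.40, Cox6a2 at 0.38, Ndufaf4 at 0.38 and Ndufa10 at 0.34. These 6 differences lay between 1.27-fold and 1.38-fold. Marker sums of other cells were 726 with TGF-β1 and 608 in the control for epithelium, where 3 of 7 genes lay above 0 and Cdh1 was highest (1.41). They were 310 with TGF-β1 and 356 in the control for T and innate lymphoid cells, and 971 with TGF-β1 and 1038 in the control for macrophages and dendritic cells. For adherent feeder cells they were 1171 with TGF-β1 and 970 in the control. Of the 7 mast cell genes 0 lay above 0 (median -0.18), against 47.6% of all genes. Among them 2 were at least 1.5-fold lower, against 4.00%, with Hdc lowest (-0.93). The part of these genes in the differences was not tested.

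In the Dll1 coculture 3 genes were lower than in the control by at least 1.5-fold and none was higher by as much. The shares over all 12806 genes tested were 7.47% lower and 4.91% higher. At 2-fold only Cox7a1 was lower, against 1.78% of all genes, and none was higher, against 1.63%. A difference above 0 was found for 51 of 85 members (60.0%), against 50.6% of all genes, and the median was 0.056, against 0.0048. After each array's median was subtracted the sign of the member median turned, to -0.030, with 34 members (40.0%) above 0, against 38.1% of all genes. The SD between probe sets of the same gene was 0.34 over 332 genes in this comparison.

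Cox7a1 read 5.84 with Dll1, against 7.01 in the control, which is 2.26-fold lower. Ndufb10, a subunit of the distal membrane arm of complex I, read 7.92 with Dll1, against 8.61 in the control, a difference of -0.69. Ndufaf2, an assembly factor of complex I related to Ndufa12, read 6.37 with Dll1, against 7.06 in the control, also a difference of -0.69. Atp5l, subunit g of the ATP synthase, stood at -0.53, Ndufv3 at -0.43 and Sdhaf4, an assembly factor of succinate dehydrogenase, at -0.35. The highest members were Ndufa10 at 0.54, Atp5g2, another c-ring gene, at 0.52, Ndufa4, a complex IV subunit first assigned to complex I, at 0.52, Cox6a2 at 0.41, Ndufc2 at 0.40 and Uqcrfs1 at 0.40.

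Markers of other cells moved with this comparison too. Genes of adherent feeder cells exceeded the limit for 8 of 11 genes with Dll1, against 5 of 11 in the control, with summed linear signals of 1416 with Dll1 and 970 in the control. In the groups without feeder cells, 7 of 11 exceeded it in intestinal cells (sum 992) and 4 of 11 with TGF-β1 (sum 1171). Actn1 had the largest difference of the list in Dll1 minus control (1.97) and also in intestinal minus control (1.18). The probe sets are designed for mouse, and how far hamster transcripts bind them is not known here. Immediate early genes were above background for 14 of 14 in both groups, with summed linear signals of 12361 with Dll1 and 2232 in the control. T and innate lymphoid markers were above background for 4 of 10 with Dll1, against 3 of 10 in the control, with sums of 778 with Dll1 and 356 in the control, and Gzma read 7.92 with Dll1, against 4.62 in the control. The part of these genes in the differences of the oxidative phosphorylation genes was not tested. No array was of a coculture with CHO cells that lack Dll1. The ligand, contact with CHO cells and recovery on c-Kit beads therefore cannot be told apart in this comparison.

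The intestinal cells differed from the control in few of these genes, although they differed in many other genes. The counts at 1.5-fold were 2 higher and 2 lower of 85, against 10.3% higher and 14.8% lower over all 12743 genes tested. At 2-fold, Ndufa10 alone was higher, against 4.47% of all genes, and none was lower, against 6.73%. Of the 85, 48 (56.5%) lay above 0, against 49.4% of all genes, and the median was 0.042, against -0.0041. With array medians subtracted the sign of the member median turned, to -0.014, with 40 members (47.1%) above 0, against 42.7% of all genes. The spread between probe sets of the same gene was widest here, with an SD of 0.48 over 322 genes.

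Ndufa10, an accessory subunit of the membrane arm of complex I that resembles nucleoside kinases, read 10.02 in intestinal cells, 9.54 with Dll1, 9.34 with TGF-β1 and 9.00 in the control, so the intestinal cells were 2.04-fold above the control. Cox6b2, a testis isoform of subunit 6b of complex IV, read 6.43 in intestinal cells, against 5.83 in the control, a difference of 0.59. Cox6a2 (0.56), Atp5k (0.53), Ndufs8 (0.52) and Uqcrfs1 (0.51) came next. The lowest were Cox7a1, with 6.14 in intestinal cells, against 7.01 in the control (-0.87), and Ndufaf3, an early assembly factor of complex I, with 6.86 in intestinal cells, against 7.45 in the control (-0.59). Ndufaf7, a methyltransferase that acts in complex I assembly, followed at -0.55, then Uqcr11 at -0.54, Ndufs7 at -0.50 and Ndufaf8 at -0.48. After array medians were subtracted Ndufa10 fell short of 2-fold (0.97) and Cox6b2 of 1.5-fold, and Ndufaf3 fell short of 1.5-fold under a repeated quantile normalization.

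Markers of other intestinal cell types read higher on the intestinal array. Epithelial markers were above background for 13 of 18 genes in intestinal cells, against 6 of 18 in the control, with summed linear signals of 2236 in intestinal cells and 608 in the control, while Epcam, Vil1, Sis and Krt19 were under the limit on all 4 arrays. The differences of the 13 epithelial markers ran from 0.18 for Apoa4 to 3.96 for Cdh1 (median 0.89). Cdh1 was also higher with TGF-β1 than in the control (1.41). T and innate lymphoid markers were above background for 10 of 10 in intestinal cells, against 3 of 10 in the control, with sums of 2811 in intestinal cells and 356 in the control, and Cd3e read 7.53 in intestinal cells, against 4.80 in the control. The lymphoid differences ran from -0.18 for Gata3 to 5.22 for Gzma (median 1.51), so Gzma weighs heavily in that sum. Gzma was also higher with Dll1 than in the control (2.81). Macrophage and dendritic cell markers were above background for 7 of 10 in intestinal cells, against 4 of 10 in the control, with sums of 4282 in intestinal cells and 1038 in the control. Their differences ran from 0.15 for Cd68 to 6.08 for Itgax (median 1.44), so the sum weighs Itgax heavily. The mast cell genes themselves had a median difference of -0.63, with Kit at 11.75 in intestinal cells, against 12.65 in the control. Immediate early genes summed to 30575 in intestinal cells and 2232 in the control. Their part in the differences was not tested, and tissue source, sorting and culture cannot be told apart from one another in this comparison.

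Between the Dll1 coculture and the TGF-β1 culture, 1 gene passed 1.5-fold and it passed 2-fold as well. Ndufb10 read 7.92 with Dll1, against 9.01 with TGF-β1, which is 2.13-fold lower, and it read 8.42 in intestinal cells and 8.61 in the control. The background was 7.19% of all 12690 genes at least 1.5-fold lower and 1.89% at least 2-fold lower. No member was higher by 1.5-fold, against 6.27% of all genes, or by 2-fold, against 2.19%. A difference above 0 was found for 34 of 85 members (40.0%), against 50.7% of all genes, and the median was -0.059, against 0.0060. After array medians were subtracted the median was -0.12, against -0.050 for all genes, with 26 (30.6%) above 0, against 42.8%. The SD between probe sets of the same gene was 0.34 over 319 genes.

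The next lowest in that comparison were Ndufaf2 (-0.51), Cox7a1 (-0.46), Uqcrq (-0.46), Cox6a1 (-0.46) and Atp5h (-0.44). The highest was Ndufa6, a LYR-motif accessory subunit of complex I, with 9.68 with Dll1, against 9.15 with TGF-β1 (0.52). Cox7a2l, a relative of subunit 7a that takes part in joining complexes III and IV, read 8.33 with Dll1, against 7.87 with TGF-β1 (0.46), and it read 8.30 in intestinal cells and 8.0 in the control. Ndufa3, Ndufc2, Atp5g2 and Ndufb3 lay between 0.32 and 0.38. Other genes moved with this comparison: immediate early genes lay higher with Dll1 for 14 of 14 (median 2.58), T and innate lymphoid markers for 4 of 4 above background (median 1.97) and feeder cell genes for 7 of 8 (median 0.48). Their summed linear signals were 12361 with Dll1 and 2226 with TGF-β1 for immediate early genes, 778 with Dll1 and 310 with TGF-β1 for lymphoid markers, and 1416 with Dll1 and 1171 with TGF-β1 for feeder genes. Of the 7 mast cell genes 4 lay higher with Dll1 (median 0.19), against 50.7% of all genes. Among them 2 were at least 1.5-fold higher, against 6.27%, and 1 was at least 1.5-fold lower, against 7.19%. Hdc, which encodes the enzyme of histamine synthesis, was the highest and read 7.18 with Dll1, against 5.68 with TGF-β1. Gata2 was the lowest (-0.62). The part of these other genes in the differences was not tested. Dll1, the CHO cells, bead recovery and TGF-β1 cannot be told apart in this comparison either.

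**Figure D3:**
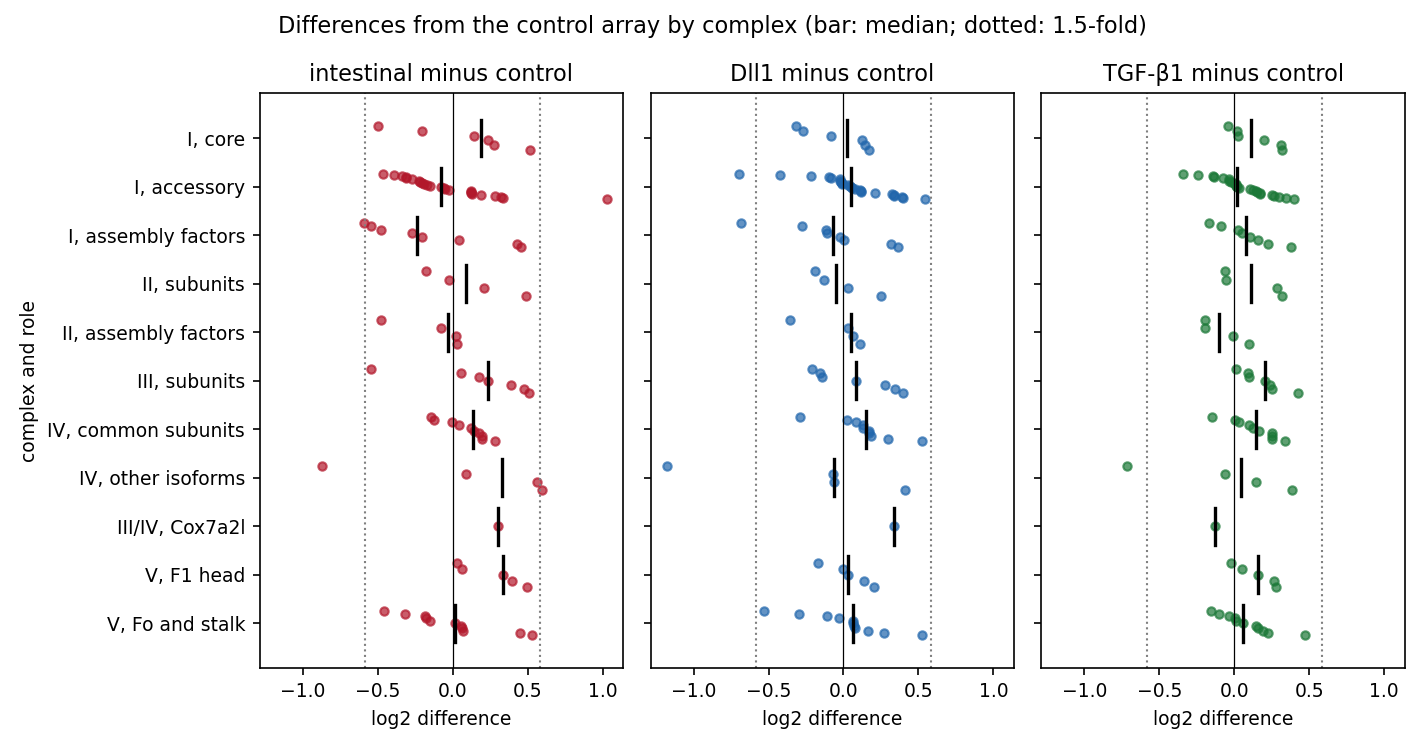
Log2 difference from the control array (horizontal axis) by complex and role (vertical axis) for the intestinal cells, the Dll1 coculture and the TGF-β1 culture, 1 point for each gene above background, a bar at the median of a role and dotted lines at 1.5-fold. Beyond the dotted lines lie 4 points for the intestinal cells, 3 for Dll1 and 1 for TGF-β1, with Ndufa10 (1.03) the farthest right and Cox7a1 (-1.18 with Dll1) the farthest left.

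Counts above the control by complex and by list, here and below, stand beside the shares over all genes tested. These were 47.6% with TGF-β1, 50.6% with Dll1 and 49.4% in intestinal cells. With array medians subtracted they were 42.3% with TGF-β1, 38.1% with Dll1 and 42.7% in intestinal cells. Each of these comparisons uses the same control array. Complex I was represented by 32 subunits, 31 of them above background, and by 8 assembly factors. The core subunits, which carry the flavin and the iron-sulfur clusters, showed no difference of 1.5-fold in any comparison. Ndufv1, the flavin-binding subunit that takes electrons from NADH, read 9.02 in intestinal cells, 8.87 with Dll1, 9.06 with TGF-β1 and 8.74 in the control. Ndufs1, the largest iron-sulfur subunit, read 6.68 in intestinal cells, 6.61 with Dll1, 6.91 with TGF-β1 and 6.88 in the control. Ndufs7 and Ndufs8, neighbours in the part that hands electrons to ubiquinone, moved apart in intestinal cells, where Ndufs8 lay 0.52 above the control and Ndufs7 lay at -0.50. Among the accessory subunits, 9 of 25 lay above 0 in intestinal minus control, 15 of 25 in Dll1 minus control and 16 of 25 in TGF-β1 minus control, with medians of -0.077 in intestinal cells, 0.048 with Dll1 and 0.018 with TGF-β1. With array medians subtracted the counts were 9 in intestinal cells, 10 with Dll1 and 11 with TGF-β1. The medians were then -0.13 in intestinal cells, -0.038 with Dll1 and -0.011 with TGF-β1.

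Ndufa6 had the widest range of the accessory subunits after Ndufb10 and Ndufa10. It read 8.83 in intestinal cells, 9.68 with Dll1, 9.15 with TGF-β1 and 9.29 in the control, so the Dll1 and intestinal arrays were its ends. Ndufb11, a membrane-arm subunit, read 5.08 in intestinal cells, 5.40 with Dll1, 4.90 with TGF-β1 and 5.28 in the control and exceeded the limit on 2 of them. The assembly factors of complex I lay below the control for 5 of 8 genes in intestinal cells (median -0.24) and for 5 of 8 with Dll1 (median -0.068), and 6 of 8 lay above it with TGF-β1 (median 0.080). Under a repeated quantile normalization the Dll1 median of these factors was 0.013. Ndufaf4 was the highest of the 8 in intestinal minus control, with 7.86 in intestinal cells, against 7.41 in the control.

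Complex II, which is also an enzyme of the citric acid cycle, had 4 subunits and 4 assembly factors, none of them past 1.5-fold in any comparison. Sdha, the flavoprotein that oxidises succinate, read 10.07 in intestinal cells, 9.74 with Dll1, 9.80 with TGF-β1 and 9.86 in the control. Sdhb, the iron-sulfur subunit, read 8.28 in intestinal cells, 8.49 with Dll1, 8.75 with TGF-β1 and 8.46 in the control. The membrane anchor Sdhc read 6.38 in intestinal cells, 6.21 with Dll1, 6.35 with TGF-β1 and 6.40 in the control. Its partner Sdhd read 8.51 in intestinal cells, 8.27 with Dll1, 8.34 with TGF-β1 and 8.02 in the control, lowest in the control. Of the 4 subunits, none lay above 0 in Dll1 minus TGF-β1, with a median of -0.10 and a range from -0.26 to -0.065. Sdhaf4 was lower than the control in each of the other groups, with 6.78 in intestinal cells, 6.90 with Dll1, 7.06 with TGF-β1 and 7.26 in the control. Sdhaf1, an assembly factor for the iron-sulfur subunit, stayed between 6.92 and 7.04.

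In complex III, 7 of 7 subunits lay above the control with TGF-β1 (median 0.20) and 6 of 7 in intestinal cells (median 0.24), while 4 of 7 did with Dll1 (median 0.083). With array medians subtracted those counts were 6 of 7 with TGF-β1, 5 of 7 in intestinal cells and 3 of 7 with Dll1, and the Dll1 median was -0.0025. Over all genes, as deposited, 47.6% lay above the control with TGF-β1, 49.4% in intestinal cells and 50.6% with Dll1. In the values as deposited no subunit passed 1.5-fold, while Uqcr11 was 1.51-fold lower in intestinal cells with array medians subtracted and Uqcrfs1 passed 1.5-fold there (0.59 higher on the log2 scale) under a repeated quantile normalization. Uqcrfs1 read 7.20 in intestinal cells, 7.09 with Dll1, 7.12 with TGF-β1 and 6.69 in the control, and the control lay 0.40 below the nearest other array. Uqcrc1, a core protein on the matrix side, read 10.17 in intestinal cells, 10.04 with Dll1, 9.90 with TGF-β1 and 9.70 in the control. Its companion Uqcrc2 read 9.44 in intestinal cells, 9.32 with Dll1, 9.29 with TGF-β1 and 9.05 in the control. The small subunit Uqcr11 ran differently and read 7.10 in intestinal cells, 7.49 with Dll1, 7.74 with TGF-β1 and 7.64 in the control, lowest in intestinal cells.

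Complex IV was the complex in which common subunits and tissue isoforms could be set side by side. The common subunits lay above the control for 9 of 10 genes with TGF-β1, 9 of 10 with Dll1 and 7 of 10 in intestinal cells, with medians of 0.15 with TGF-β1, 0.15 with Dll1 and 0.13 in intestinal cells and no gene past 1.5-fold. The 9 with TGF-β1 include Cox7c, which read lower there (4.97) than in the control (5.20). Its value was under the limit with TGF-β1 and was raised to it, which gave a difference of 0.0055. With array medians subtracted the counts were 8 of 10 with TGF-β1, 7 of 10 with Dll1 and 6 of 10 in intestinal cells. Cox4i1, the common isoform of the regulatory subunit 4, read 11.20 in intestinal cells, 11.22 with Dll1, 11.17 with TGF-β1 and 10.92 in the control. Cox5a read 9.92 in intestinal cells, 10.05 with Dll1, 10.00 with TGF-β1 and 9.88 in the control. Cox7a2, the common counterpart of Cox7a1, read 11.01 in intestinal cells, 11.04 with Dll1, 11.12 with TGF-β1 and 10.87 in the control, lowest in the control, whereas Cox7a1 was highest there. Ndufa4 read 10.16 in intestinal cells, 10.55 with Dll1, 10.29 with TGF-β1 and 10.03 in the control.

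Of the 8 alternative isoforms and relatives, 4 were above background on every array and 4 on none. Cox7a1 was lower than the control in each of the other 3 groups, by 0.87 in intestinal cells, 1.18 with Dll1 and 0.71 with TGF-β1 on the log2 scale, and these 3 differences share the control array. Without the control, the 3 other arrays lay between 5.84 and 6.30. Cox6a2, the heart and skeletal muscle isoform of subunit 6a, read 5.70 in intestinal cells, 5.55 with Dll1, 5.52 with TGF-β1 and 5.14 in the control, where it was close to the limit of 5.11. Cox4i2, known from lung, read 5.50 in intestinal cells, 5.34 with Dll1, 5.35 with TGF-β1 and 5.41 in the control and stayed near background. Cox7b2, Cox8b, Cox8c and Ndufa4l2 read between 4.23 and 4.83 on the 4 arrays.

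With the brightest probe set of each gene, the 16 ATP synthase genes above background showed no difference of 1.5-fold in any comparison of the deposited values. The second probe set of Atp5d passed 1.5-fold, at 0.64 in Dll1 minus control and 0.67 in intestinal minus control. Atp5l was 1.53-fold lower with Dll1 than in the control with array medians subtracted and 1.51-fold lower under a repeated quantile normalization. With an offset of 16 subtracted, Atp5o was 1.66-fold higher with TGF-β1 than in the control, and in intestinal cells Atp5c1 was 1.67-fold higher and Atp5g1 1.62-fold lower than in the control. The catalytic β subunit gene Atp5b read 11.91 in intestinal cells, 11.66 with Dll1, 11.79 with TGF-β1 and 11.52 in the control. Its α partner Atp5a1 read 11.20 in intestinal cells, 11.20 with Dll1, 11.33 with TGF-β1 and 11.17 in the control. All 5 genes of the catalytic head lay above the control in intestinal cells (median 0.33), and 4 of 5 did after array medians were subtracted or when the probe sets of a gene were averaged. The membrane and stalk genes were mixed, with 6 of 11 above the control in intestinal cells, 7 of 11 with Dll1 and 8 of 11 with TGF-β1. With array medians subtracted those counts were 4 in intestinal cells, 3 with Dll1 and 6 with TGF-β1.

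The c ring is encoded by 3 genes whose mature proteins are the same and whose import sequences differ, and the 3 genes did not run together. Atp5g1 read 5.31 in intestinal cells, 5.84 with Dll1, 5.61 with TGF-β1 and 5.77 in the control, lowest in intestinal cells. Atp5g2 read 9.69 in intestinal cells, 9.76 with Dll1, 9.42 with TGF-β1 and 9.23 in the control, lowest in the control. Atp5g3, shown above with its promoter window, was level. Atp5l read 11.79 in intestinal cells, 11.45 with Dll1, 11.87 with TGF-β1 and 11.98 in the control, lowest with Dll1, and Atp5k, subunit e, which pairs with it at the dimer interface, read 8.53 in intestinal cells, 8.27 with Dll1, 8.22 with TGF-β1 and 8.0 in the control, lowest in the control.

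Of the 91 genes, 10 had more than 1 probe set, and the brightest was used for each. Cox7b was the gene whose probe sets differed by more than 1 in a difference. Its bright probe set read 10.00 in intestinal cells, 9.89 with Dll1, 9.65 with TGF-β1 and 9.81 in the control, while its dim one read 5.78 in intestinal cells, 4.78 with Dll1, 5.87 with TGF-β1 and 6.06 in the control. For Dll1 minus control the 2 probe sets thus gave 0.083 and -1.28, the dim one was under the background limit with Dll1, and their mean passed 1.5-fold (-0.60). Ndufa8 and Atp5d had gaps of up to 0.98 and 0.81 between probe sets, and the other 7 genes had gaps of up to 0.45. The dim probe set of Atp5d was above background on all 4 arrays. For Dll1 minus control the bright one gave -0.17 and the dim one 0.64, opposite in sign. In intestinal minus control they gave 0.33 and 0.67.

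The subunits encoded in the mitochondrial genome ran apart from the nuclear ones with TGF-β1. Of 10 such genes on the arrays (COX1, COX3, CYTB, ND1 to ND6 and ND4L), 0 lay above the control with TGF-β1, with a median of -0.25 and a range from -0.49 to -0.037, whereas 60 of 85 nuclear genes lay above it, and the difference between the 2 sets was not tested. The 85 include assembly factors, and of the nuclear subunits alone 53 of 73 lay above the control. With array medians subtracted the mitochondrial count stayed at 0, while the nuclear counts fell to 48 of 85 and 42 of 73. Under a repeated quantile normalization the mitochondrial count was 1 of 10 and the nuclear one 63 of 85. All these counts rest on the same 2 arrays, so the genes of a set are not independent observations. In Dll1 minus control and in intestinal minus control 6 of 10 lay above 0, with medians of 0.020 with Dll1 and 0.069 in intestinal cells, and subtraction of array medians turned the Dll1 median to -0.066. ND4L, a small membrane subunit of complex I, read 8.78 in intestinal cells, 7.84 with Dll1, 8.09 with TGF-β1 and 8.58 in the control, so it was 1.67-fold lower with Dll1 than in the control. ND3 read 9.14 in intestinal cells, 9.49 with Dll1, 8.82 with TGF-β1 and 9.28 in the control and was 0.67 higher with Dll1 than with TGF-β1. CYTB, the cytochrome b of complex III, read 11.47 in intestinal cells, 11.38 with Dll1, 10.95 with TGF-β1 and 11.21 in the control.

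Some nuclear genes of the same machinery fall outside the symbol prefixes. Cycs, the somatic cytochrome c, read 10.96 in intestinal cells, 10.51 with Dll1, 10.55 with TGF-β1 and 10.23 in the control, so the intestinal cells lay 0.73 above the control. Cyc1, the cytochrome c1 subunit of complex III, read 9.44 in intestinal cells, 8.98 with Dll1, 9.28 with TGF-β1 and 9.08 in the control. Atpif1, the inhibitor of ATP hydrolysis by the ATP synthase, read 9.80 in intestinal cells, 10.20 with Dll1, 10.55 with TGF-β1 and 10.47 in the control, and it lay at -0.68 in intestinal minus control. Of 35 assembly factors without the prefixes, 2 were at least 1.5-fold higher and 3 lower in intestinal cells, against 10.3% and 14.8% of all genes, and the median was -0.0026. These were Cox18 (0.77) and Uqcc1 (0.68), and Atpaf1 (-0.85), Pet100 (-0.82) and Tmem126b (-0.69). With Dll1 1 of 35 was at least 1.5-fold higher, against 4.91% of all genes, namely Nubpl, an iron-sulfur assembly factor for complex I, with 6.46 with Dll1, against 5.60 in the control.

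The citric acid cycle supplies NADH and succinate to the chain. Idh3a, the catalytic subunit of the NAD-dependent isocitrate dehydrogenase, read 8.20 in intestinal cells, 8.06 with Dll1, 8.16 with TGF-β1 and 7.41 in the control. The control was the lowest of the 4 arrays by at least 0.65. Idh2, the NADP-dependent mitochondrial form, read 8.84 in intestinal cells, 7.69 with Dll1, 7.90 with TGF-β1 and 7.89 in the control, and the intestinal array stood alone. Of 17 genes of the cycle and of the pyruvate dehydrogenase complex, 13 lay above the control in intestinal cells (median 0.17), 9 with Dll1 (median 0.035) and 12 with TGF-β1 (median 0.12). Those past 1.5-fold, all higher, were Idh2 (0.95), Idh3a (0.79) and Mdh2 (0.63) in intestinal cells, against 10.3% of all genes. With Dll1 it was Idh3a (0.65), against 4.91%, and with TGF-β1 Idh3a (0.75) and Fh1 (0.59), against 2.51%. With array medians subtracted, 12 of the 17 lay above the control in intestinal cells, 6 with Dll1 (median -0.0505) and 10 with TGF-β1. At least 1.5-fold higher were then 2 in intestinal cells, 0 with Dll1 and 1 with TGF-β1.

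Genes of ubiquinone synthesis were split. Coq10b and Coq10a, which encode related ubiquinone-binding proteins, ran in opposite directions in intestinal cells. Coq10b read 8.77 in intestinal cells, 7.07 with Dll1, 6.53 with TGF-β1 and 6.74 in the control, a difference of 2.04 between intestinal cells and the control. Coq10a read 6.08 in intestinal cells, 6.39 with Dll1, 6.65 with TGF-β1 and 7.08 in the control, a difference of -1.01. The remaining genes of the list lay on both sides of the control, and 5 of 10 in all were above it in intestinal cells.

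Among regulators of mitochondrial gene expression, Ppargc1a (PGC-1α), a coactivator of mitochondrial biogenesis, was below background on all 4 arrays, between 4.48 and 4.72. Pprc1, a related coactivator, read 7.12 in intestinal cells, 6.85 with Dll1, 7.53 with TGF-β1 and 6.89 in the control. Nrf1 read 7.11 in intestinal cells, 6.98 with Dll1, 6.98 with TGF-β1 and 6.63 in the control, lowest in the control. Tfb2m, a mitochondrial transcription factor, read 5.90 in intestinal cells, 7.55 with Dll1, 6.98 with TGF-β1 and 6.65 in the control, highest with Dll1 and lowest in intestinal cells. Polg, the catalytic subunit of the mitochondrial DNA polymerase, read 5.33 in intestinal cells, 6.15 with Dll1, 6.17 with TGF-β1 and 6.45 in the control, a difference of -1.12 between intestinal cells and the control. Of the 16 regulators tested in intestinal minus control, 12 lay above 0, with 1 past 1.5-fold higher (Gabpb1, 0.78), against 10.3% of all genes, and 2 lower (Polg and Tfb2m), against 14.8%.

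**Figure D4:**
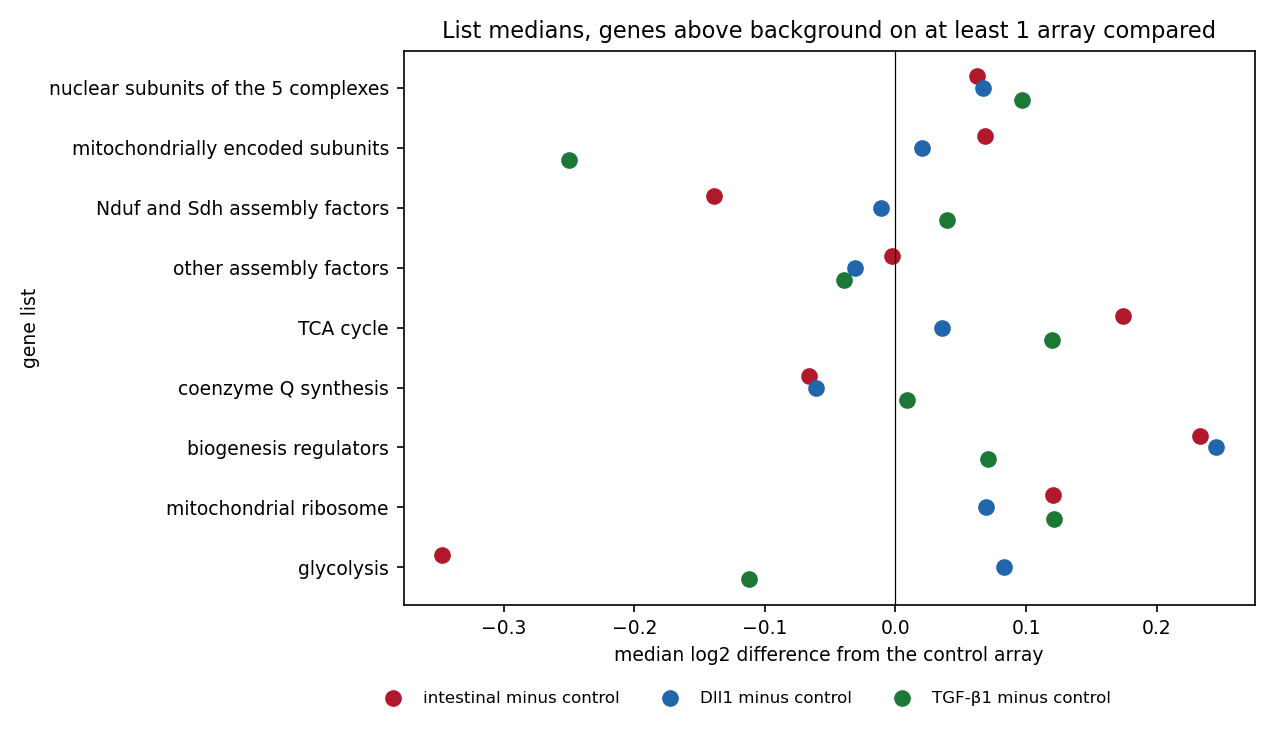
Median log2 difference from the control array (horizontal axis) of the nuclear subunits without assembly factors and of neighbouring gene lists (vertical axis), 1 point each for the intestinal cells, the Dll1 coculture and the TGF-β1 culture. The nuclear subunits lie at 0.062 for intestinal cells, 0.067 for Dll1 and 0.097 for TGF-β1 (with array medians subtracted, 0.0067 for intestinal cells, -0.019 for Dll1 and 0.068 for TGF-β1). The mitochondrially encoded subunits lie at 0.069 for intestinal cells, 0.020 for Dll1 and -0.25 for TGF-β1.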

How the data were processed

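RNA of 4 samples, 1 for each group, was amplified from 2 ng and hybridised to Affymetrix arrays, per the labels' protocols. The authors deposited 1 table of log2 values for 33793 probe sets, and the values of the 4 arrays have almost the same distribution. For its software, normalization and genome build, the sources used here give nothing. No column was of another sample (0 such columns).

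The platform annotation gave 1 symbol for 23521 probe sets, several for 1814, and 8458 are unlisted. A gene took its probe set with the highest mean. All 91 members matched a RefSeq gene. A difference was tested by size alone: at least 1.5-fold or 2-fold, above the 95th percentile of the receptor probe sets on at least 1 of the 2 arrays, with lower values raised to that limit. Genes were named by rank (the 6 highest and 6 lowest differences of a comparison, the 5 widest and 5 narrowest ranges) and by role (succinate dehydrogenase, isoforms of complex IV, the c ring, catalytic subunits, and at most 4 genes of another list). Members, gene lists, motifs and this rule were chosen with earlier results of these data known. S6 kinases were kept out of the cytosolic ribosome list. Simulated data were used to check that size rule. Alternatives changed the probe set rule, the normalization, the background limit, a filter on dim genes and the floor of the scale. Python 3.11.15, numpy 2.4.6, pandas 2.3.3 and matplotlib 3.10.9 were used.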

Additional observations from a re-analysis of the deposited data

How the results depend on the processing

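No paired analysis was possible because each group has 1 array. Of 128 results recomputed under alternatives, 109 had a count within 1.5 times, or a median of the same sign within 0.1, of the reported one. Of the rest, 17 moved further and 2 turned sign. The limit of 0.1 exceeds in size the median over all members in every comparison, so it is a wide one. Within those limits some values still shifted, such as the median for Dll1 minus TGF-β1, which was -0.12 with array medians subtracted. The same step took the members above 0 from 51 (60.0%) to 34 (40.0%) of 85 in Dll1 minus control. In intestinal minus control it took them from 48 (56.5%) to 40 (47.1%) of 85. Both medians that turned sign did so with array medians subtracted, a step that shifts every difference of a comparison by the same amount. The median difference of the members was then -0.030 for Dll1 minus control and -0.014 for intestinal minus control. The medians of all genes were -0.081 and -0.060. With an offset of 16 subtracted, which widens differences of dim genes, 3 members were 1.5-fold lower in Dll1 minus TGF-β1, 1 was higher in Dll1 minus control, 2 were higher in TGF-β1 minus control, and 4 were higher and 5 lower in intestinal minus control. Among members with a mean of at least 8, fewer genes are counted by construction: 21 of 46 lay above 0 in Dll1 minus TGF-β1, 32 in Dll1 minus control, 36 in TGF-β1 minus control and 27 in intestinal minus control, with 1 lower by 1.5-fold in Dll1 minus control, 0 lower in TGF-β1 minus control, and 1 higher and 0 lower in intestinal minus control. The intestinal counts at 1.5-fold also became 1 higher and 4 lower with array medians subtracted, 1 higher with the limit at the 99th percentile and 1 lower under a repeated quantile normalization, and the cause of these was not tested. Genes near the background limit, such as Cox6a2 and Cox7c, are read with compressed differences. Without replicates, no difference of a single gene can be set against biological variation.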

Other observations

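Mitochondrial ribosomal protein genes lay above the control for 47 of 70 in intestinal cells (median 0.12), 42 of 69 with Dll1 (median 0.069) and 57 of 69 with TGF-β1 (median 0.12). With array medians subtracted the counts were 41 in intestinal cells, 32 with Dll1 and 53 with TGF-β1, and the Dll1 median was -0.017. Over all genes, as deposited, 49.4% lay above the control in intestinal cells, 50.6% with Dll1 and 47.6% with TGF-β1. Mrpl52 read 7.83 in intestinal cells, 7.51 with Dll1, 8.28 with TGF-β1 and 7.16 in the control. Cytosolic ribosomal protein genes lay above the control for 51 of 61 in intestinal cells (median 0.33), 53 of 62 with Dll1 (median 0.22) and 56 of 61 with TGF-β1 (median 0.22), with counts of 50 in intestinal cells, 45 with Dll1 and 55 with TGF-β1 after subtraction of array medians. At least 1.5-fold higher were 10 of 61 in intestinal cells, against 10.3% of all genes, 6 of 62 with Dll1, against 4.91%, and 2 of 61 with TGF-β1, against 2.51%. These 3 comparisons share the control array. The largest of these differences in intestinal cells was that of Rpsa, with 10.52 in intestinal cells, against 9.25 in the control.

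In intestinal cells 4 of 14 glycolysis genes lay above the control (median -0.35), against 49.4% of all genes, and 4 were at least 1.5-fold lower, against 14.8%. That count was 6 with array medians subtracted, 5 under a repeated quantile normalization and 3 when the probe sets of a gene were averaged. Aldoc, the aldolase isoform known from brain, read 5.18 in intestinal cells, 7.18 with Dll1, 8.48 with TGF-β1 and 8.37 in the control. Pfkp, the platelet-type phosphofructokinase, read 8.65 in intestinal cells, 9.34 with Dll1, 9.60 with TGF-β1 and 10.11 in the control, and Pgam1, a phosphoglycerate mutase, read 8.61 in intestinal cells, 9.40 with Dll1, 9.25 with TGF-β1 and 9.67 in the control. Slc2a1, the glucose transporter GLUT1, read 9.13 in intestinal cells, 10.02 with Dll1, 9.21 with TGF-β1 and 9.81 in the control. With TGF-β1, 3 of 14 glycolysis genes lay above the control (median -0.11), against 47.6% of all genes. With Dll1 8 of 14 did (median 0.083), against 50.6%, and that median became -0.0024 with array medians subtracted. The difference between the glycolysis and the oxidative phosphorylation genes was not tested.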
